A study of Mus musculus with 2 samples.

Results

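The NFI and MEF2 transcription factor genes were described by their open chromatin in the adult mouse hippocampus. The members were fixed by name: the 4 NFI genes Nfia, Nfib, Nfic and Nfix, and the 4 MEF2 genes Mef2a, Mef2b, Mef2c and Mef2d, 8 of 21851 protein-coding genes in the GENCODE M21 annotation. Each was taken as its gene body plus 50 kb on both sides. The 8 windows held 378 of 144270 peaks in replicate 1 and 302 of 124426 in replicate 2.

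DNase-seq marks accessible DNA by where the enzyme DNase I cuts it: places rich in cuts are peaks, and short stretches inside them that are spared from cutting are footprints. The series was 1 group of 2 biological replicates with no second condition, so the replicates were set beside each other and the members beside the rest of the genome, with no test between conditions. Both were hippocampus of male B6CASTF1/J mice (the first-generation cross of C57BL/6J and CAST/EiJ) aged 8 to 10 months. Each replicate was a pool of 2 biosamples. The replicates carry a single donor label, so whether they share animals is not given, and their spread may be partly technical. The tissue label speaks of a hippocampal layer without naming it, and the pools mix neurons and glia. In such tissue a site that is widely open in a few cells and a site that is weakly open in many cannot be told apart.

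NFI proteins bind DNA as dimers at the palindrome TTGGC, a short spacer and GCCAA, or more weakly at either arm alone. Nfia, Nfib and Nfix are known for the formation of glia and of the hippocampus in the developing mouse, and Nfic for tooth root formation. MEF2 proteins are MADS-box factors that bind an A- and T-rich string between CTA and TAG. In neurons, calcium signals switch them from repression with class IIa histone deacetylases to activation, and Mef2a, Mef2c and Mef2d limit the number of excitatory synapses, while Mef2b is best known from B lymphocytes.

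Sequences that show the families' own binding strings at these genes are given first, read from GRCm38 (mm10), plus strand, 5′ to 3′. Capitals mark the NFI string, TTGGCA on either strand or the full palindrome, in the first 3. They are the tallest distal site of Nfia, in whose sequence both matches lay inside footprints found in both replicates, the Nfia site with the palindrome, and an intronic Nfib site with 3 matches.
Nfia tallest distal site, chr4:97868941-97869160: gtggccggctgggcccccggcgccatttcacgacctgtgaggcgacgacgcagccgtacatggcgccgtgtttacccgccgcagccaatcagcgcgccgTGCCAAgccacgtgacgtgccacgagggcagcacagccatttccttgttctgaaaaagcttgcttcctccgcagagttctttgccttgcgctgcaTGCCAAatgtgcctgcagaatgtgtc
Nfia site with the NFI palindrome, chr4:97876021-97876200: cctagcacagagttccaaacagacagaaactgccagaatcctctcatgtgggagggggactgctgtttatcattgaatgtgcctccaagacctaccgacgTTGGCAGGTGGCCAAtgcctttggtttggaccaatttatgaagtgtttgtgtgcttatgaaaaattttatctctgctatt
Nfib second-tallest distal site, chr4:82494941-82495160: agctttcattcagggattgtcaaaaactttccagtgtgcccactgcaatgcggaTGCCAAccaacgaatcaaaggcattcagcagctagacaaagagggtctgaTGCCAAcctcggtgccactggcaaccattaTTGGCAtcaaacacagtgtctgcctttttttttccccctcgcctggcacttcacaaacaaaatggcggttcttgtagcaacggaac

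Capitals mark an exact MEF2 string in the next 3, the Mef2a promoter and the only 2 distal sites with a match. The Mef2a promoter is cut so that it ends just inside the transcribed sequence. Its match spans the annotated start.
Mef2a promoter, upstream part, chr7:67372847-67373040: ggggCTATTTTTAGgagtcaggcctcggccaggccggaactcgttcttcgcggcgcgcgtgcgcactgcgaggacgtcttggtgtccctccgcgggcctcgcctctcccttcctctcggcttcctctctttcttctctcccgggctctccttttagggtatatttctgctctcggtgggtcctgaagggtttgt
Mef2b upstream site, chr8:70128501-70128720: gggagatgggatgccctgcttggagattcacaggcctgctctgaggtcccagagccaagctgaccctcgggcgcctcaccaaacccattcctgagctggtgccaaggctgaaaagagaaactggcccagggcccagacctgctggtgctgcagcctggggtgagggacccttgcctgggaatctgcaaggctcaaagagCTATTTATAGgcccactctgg
Mef2d upstream site, chr3:88140673-88140883: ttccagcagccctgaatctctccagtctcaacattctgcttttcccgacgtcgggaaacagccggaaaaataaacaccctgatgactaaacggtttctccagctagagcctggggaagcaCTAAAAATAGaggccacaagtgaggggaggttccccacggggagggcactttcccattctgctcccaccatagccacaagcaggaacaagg

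The tallest distal sites of Mef2d, Mef2c, Nfix and Nfib are shown because they stood above their genes' promoters. Here capitals mark the stretches that a footprint covered in both replicates.
Mef2d tallest distal site, chr3:88178001-88178260: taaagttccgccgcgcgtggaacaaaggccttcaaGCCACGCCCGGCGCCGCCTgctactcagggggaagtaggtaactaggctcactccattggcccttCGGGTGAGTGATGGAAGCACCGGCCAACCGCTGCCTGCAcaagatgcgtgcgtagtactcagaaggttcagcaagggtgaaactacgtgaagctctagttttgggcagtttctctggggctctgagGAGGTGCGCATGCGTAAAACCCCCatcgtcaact
Mef2c tallest distal site, chr13:83715061-83715300: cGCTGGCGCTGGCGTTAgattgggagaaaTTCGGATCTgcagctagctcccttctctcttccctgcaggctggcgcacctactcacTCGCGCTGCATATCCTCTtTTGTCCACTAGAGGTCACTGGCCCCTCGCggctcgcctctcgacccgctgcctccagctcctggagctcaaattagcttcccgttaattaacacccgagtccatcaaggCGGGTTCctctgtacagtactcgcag
Nfix tallest distal site, chr8:84810961-84811180: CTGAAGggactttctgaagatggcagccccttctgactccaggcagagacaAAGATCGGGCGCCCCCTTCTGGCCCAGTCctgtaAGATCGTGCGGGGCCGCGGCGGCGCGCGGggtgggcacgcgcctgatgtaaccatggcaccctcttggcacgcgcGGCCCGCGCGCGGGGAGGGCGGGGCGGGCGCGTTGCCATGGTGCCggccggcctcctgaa
Nfib tallest distal site, chr4:82513161-82513460: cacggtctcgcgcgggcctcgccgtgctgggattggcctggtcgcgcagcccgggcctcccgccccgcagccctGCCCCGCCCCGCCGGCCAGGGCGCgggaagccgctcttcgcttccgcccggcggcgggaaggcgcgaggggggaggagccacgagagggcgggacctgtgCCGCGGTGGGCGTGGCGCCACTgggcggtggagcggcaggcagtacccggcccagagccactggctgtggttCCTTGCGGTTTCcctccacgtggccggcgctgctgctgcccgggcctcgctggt

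The first question was whether the members' promoters were open. A promoter was 1000 bp to each side of a start of a protein-coding transcript, and the height of a peak is the authors' own signal, on a scale that is not stated. All 8 members had a promoter peak in both replicates, where 62.6% of protein-coding genes did. A promoter peak in replicate 1 alone (2.27% of genes) or in replicate 2 alone (1.10%) was found at no member. The promoters were unequal: Mef2a, Mef2b and Mef2d stood above the median of open genes (mean height 3.26), and the 4 NFI genes and Mef2c stood below it. The authors' shorter peak list, with a stricter false discovery rate, held 222 of the members' 378 peaks in replicate 1 (58.7%, against 59.2% of all) and 160 of 302 in replicate 2 (53.0%, against 58.4%). In it 6 of 8 members kept a promoter peak in both replicates, against 58.0% of genes. Nfia and Mef2c then had a peak in replicate 1 alone.

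Nfia, the NFI gene tied to the start of gliogenesis, had the lowest promoter of the 8. Its tallest promoter peak reached 0.991 in replicate 1 and 0.827 in replicate 2 (mean 0.909 ± 0.116, SD, n = 2), and these were different peaks, upstream of and at the starts. The peak upstream, chr4:97777121-97777420 in replicate 1, had 0.749 in replicate 2. The peak at the starts had 0.893 in replicate 1. Only 13.2% of open genes had a lower promoter. A further 5′ end of Nfia, annotated only in the comprehensive GENCODE set and inside the neighbouring gene E130114P18Rik, was far taller, with 7.55 in replicate 1 and 5.13 in replicate 2. It counted as a distal site, the second tallest of the gene. The RefSeq start of Nfia that lies outside the window had no peak in either replicate.

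Nfib, needed for lung and forebrain development in the mouse, had 2.98 in replicate 1 and 2.03 in replicate 2 at its tallest promoter peak (2.50 ± 0.673, SD, n = 2). The peak lay 741 bp upstream of the nearest start, and the 5′ end of the longest Nfib model, far upstream, had no peak. Nfic had 2.17 and 1.81 at its middle start (1.99 ± 0.258), and 0.781 and 0.723 at its most internal start. At the outermost Nfic start 3 low peaks, at most 0.348 high, were called in replicate 1 and none in replicate 2. Nfix had 3.43 and 2.45 at its internal starts (2.94 ± 0.692) and 1.17 and 1.10 at its outermost starts, where the DNA was the richer in G and C (76.2% against 50.4%). At Nfic and Nfix the taller promoter was thus inside the gene in both replicates.

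Mef2a, a MEF2 factor widely expressed in neurons, had a single start with 6.41 in replicate 1 and 6.11 in replicate 2 (6.26 ± 0.205, SD, n = 2), above 80.0% of open genes. Mef2d, its partner in limiting hippocampal synapses, had 5.69 and 3.38 (4.54 ± 1.63). This was the widest gap between replicates among the members' tallest promoter peaks. Mef2c, whose loss in mice impairs neuron maturation, had 1.50 and 0.975 (1.24 ± 0.373), all at the second of its 4 groups of starts. The outermost Mef2c start and both internal groups had no promoter peak in either replicate.

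The peak counted for Mef2b was the tallest of all, with 9.73 and 7.86 (8.80 ± 1.32, SD, n = 2). It is shared with other genes: the start of Rfxank, an activator of MHC class II genes, lay inside it, and that of Borcs8, a subunit of a lysosome positioning complex, lay 39 bp from it in replicate 1. At Mef2b's internal start, where no other gene shared it, the peak was 0.971 high in replicate 1 and 0.768 in replicate 2. Which gene the tall peak serves was not tested.

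**Figure D1:**
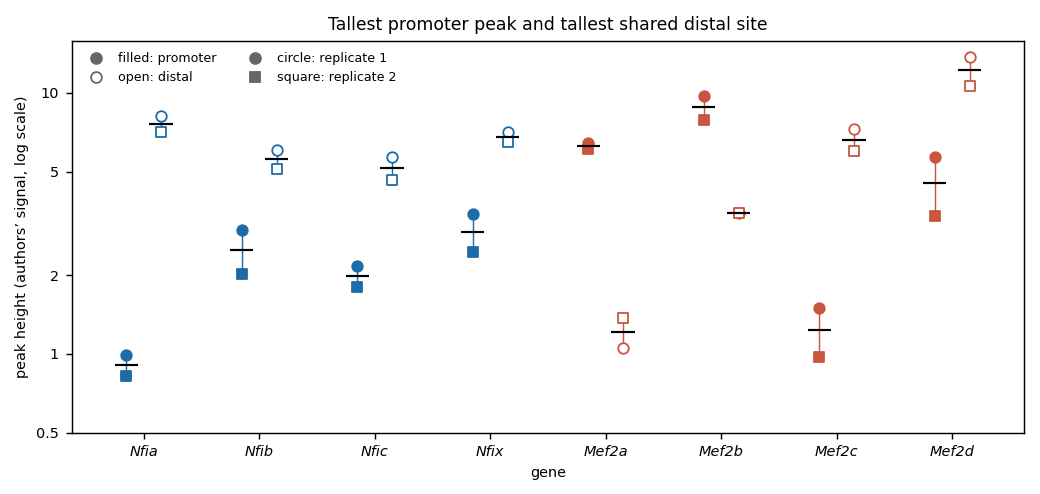
Height (the authors' signal, log scale) of the tallest promoter peak (filled) and the tallest distal site shared by both replicates (open) at each gene, with circles for replicate 1, squares for replicate 2 and a bar at their mean. The distal site stood above the promoter at 6 of the 8 genes and below it at Mef2a and Mef2b. The Mef2b promoter peak shown holds the start of Rfxank.

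Distal peaks were those outside the promoter windows of every protein-coding gene. NFI genes held 219 in replicate 1 and 183 in replicate 2, and MEF2 genes held 83 and 60. Pairing the replicates' best overlaps gave 133 shared sites at NFI genes and 52 at MEF2 genes, 185 of 80475 in the genome. Nfib had the most, with 66 and 51 distal peaks and 43 shared sites, then Nfic with 64 and 55 (36 shared) and Nfia with 47 and 39 (29 shared). Nfix had 42 and 38 (25 shared). Among MEF2 genes Mef2c had 22 and 19 (17 shared), Mef2d 37 and 20 (17 shared), Mef2b 13 and 12 (10 shared) and Mef2a 11 and 9 (8 shared). Each of the 4 NFI genes had more shared sites than each of the 4 MEF2 genes. Their windows were also longer in sum, 1322 kb against 762 kb.

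**Figure D2:**
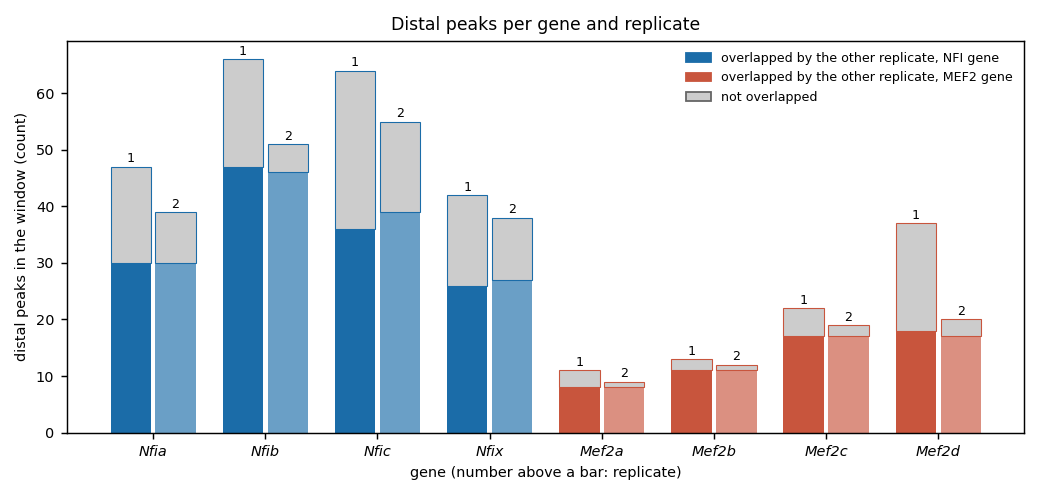
Number of distal peaks in each gene's window, replicate 1 on the left and replicate 2 on the right, with the peaks overlapped by the other replicate in colour and the rest in grey. Replicate 1 had more distal peaks at all 8 genes, by the widest margin at Mef2d (37 against 20).

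Per 10 kb of window the NFI genes had 1.01 shared sites and the MEF2 genes 0.682, where the median protein-coding gene had 0.354. Single members overlapped between the families, from 0.650 (Nfia) to 2.26 (Nfic) and from 0.331 (Mef2a) to 1.31 (Mef2d). Where the sites lay also differed between the families, and so did the windows. Gene bodies made up 922 of 1322 kb at NFI genes and 362 of 762 kb at MEF2 genes. The part of this in where the sites lay was not tested. In NFI windows 77.6% of distal peaks of replicate 1 and 75.4% of replicate 2 were inside the gene body, against 31.3% and 35.0% in MEF2 windows. Leaving the flanks out therefore took the MEF2 sites to 19 but the NFI sites only to 103. Some sites belonged to neighbours' territory, since 31 of the 185 lay inside another protein-coding gene, 11 of them in the Nfic window, which overlaps 12 other genes. Nfib and Mef2c had no other protein-coding gene in their windows.

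Within the gene body Nfic was the densest, with 3.70 shared sites per 10 kb. That was higher than 99.95% of the 2185 genes in its decile of gene length, whose median was 0.343. Nfix had 1.79 per 10 kb, Mef2d 1.35, Nfib 0.963, Mef2b 0.720, Mef2c 0.675 and Nfia 0.664. Mef2a had 0.141, the only member under the median of its decile (0.358) and above only 14.6% of its 2185 genes. The 141.7 kb body of Mef2a thus paired a tall promoter with 2 shared distal sites inside the gene.

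**Figure D3:**
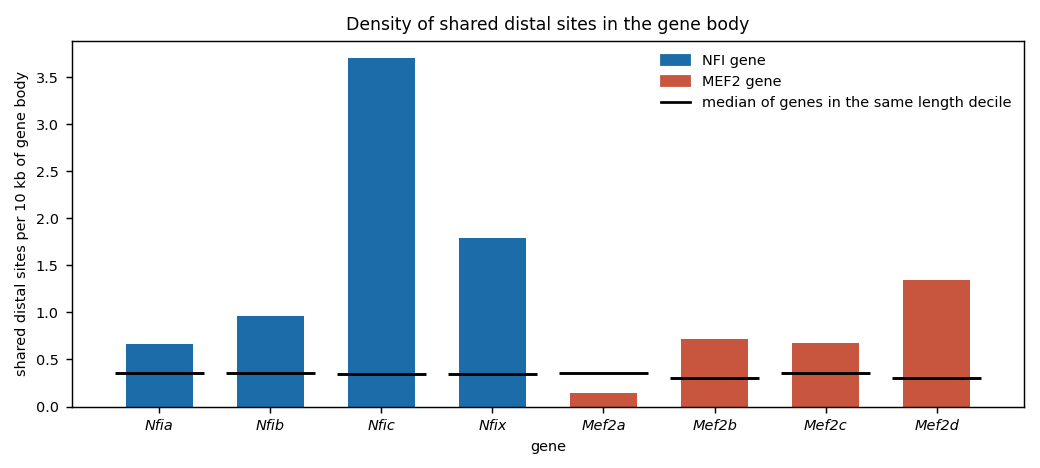
Shared distal sites per 10 kb of gene body for each gene (bars), with the median of all protein-coding genes in the same decile of gene length (black lines). Nfic stood highest at 3.70, and Mef2a (0.141) was the only gene below its line.

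**Figure D4:**
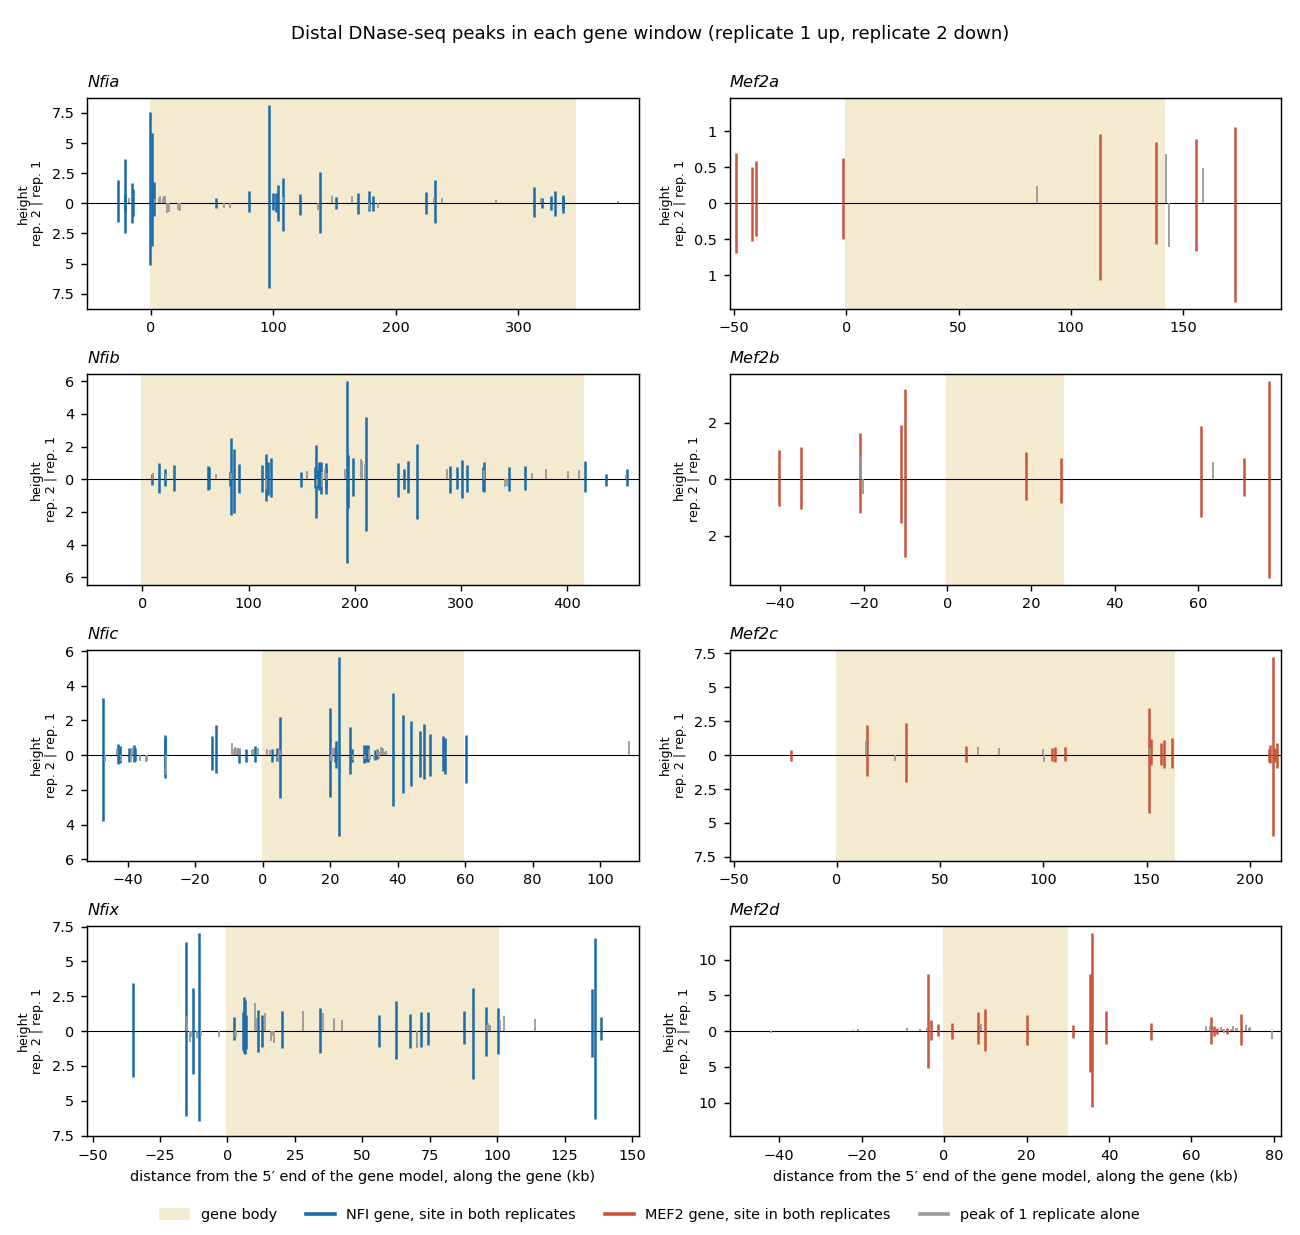
Distal peaks along each gene window, by distance from the 5′ end of the gene model in kb, with height upward for replicate 1 and downward for replicate 2 (each panel on its own scale). Coloured lines are sites in both replicates, grey lines are peaks of 1 replicate, promoter peaks are left out, and the tan band is the gene body. The tall lines mirror each other, and in Mef2a, Mef2b and Mef2d most lines fall outside the band.

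The members' windows held tall distal sites. The mean of both replicates exceeded 5 at 11 of the 185 sites, or 5.95%, where 0.696% of all shared distal sites did. The members' share was 2.46% without the flanks and 10.5% in the stricter peak list, and no share over all sites was counted for either setting. Of the 11, 4 lay within 1000 bp of some start in the comprehensive annotation, non-coding ones included. The same share among all sites above 5 in the genome was not counted. Over sites of every height that placing was more frequent at the members, with 26 of 185 (14.1%) against 9.07%.

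The tallest was downstream of Mef2d, at chr3:88178001-88178260, with 13.8 in replicate 1 and 10.7 in replicate 2 (12.2 ± 2.20, SD, n = 2). It had a neighbour of 7.97 and 5.79, and both lay at the start of the antisense transcript 1700113A16Rik. Another tall site, 3921 bp upstream of Mef2d, had 8.01 and 5.12 and contained the cyclic AMP response element TGACGTCA. All 3 were taller in replicate 1. Mef2c had its tallest distal site 139504 bp from its nearest start, beyond the gene's end, with 7.27 and 5.97 (6.62 ± 0.914). Inside the gene its tallest was an intronic site of 3.47 and 4.29.

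Nfia had its tallest site in an intron, 91217 bp from the nearest start, with 8.18 in replicate 1 and 7.06 in replicate 2 (7.62 ± 0.787, SD, n = 2). This is the site whose 2 NFI strings lay in shared footprints. Nfix had 3 sites above 6, of which the tallest, 10727 bp upstream, had 7.07 and 6.48 (6.78 ± 0.414). Another lay downstream, with 6.68 and 6.34, beside the start of the non-coding RNA Gm26664. Nfib had 6.02 and 5.11 (5.57 ± 0.649) in an intron 7541 bp upstream of the nearest start. Nfic had 5.68 and 4.65 (5.16 ± 0.727) only 2066 bp upstream of its middle start. The remaining MEF2 genes were lower: Mef2b reached 3.47 and 3.48 downstream, and Mef2a 1.06 and 1.37 downstream.

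The tallest distal site thus exceeded the tallest promoter peak at 6 of 8 members, where it did at 35.9% of genes with an open promoter. Without the flanks it did so at 5 members. In the stricter peak list it did so at 4 of the 6 members with a promoter peak in both replicates, and the rest could not be compared. The share over all open genes varied with gene length. It was 51.0% in the highest decile, which holds Nfia, Nfib, Mef2a and Mef2c, 39.1% in the ninth (Nfic, Nfix) and 29.8% in the seventh (Mef2b, Mef2d). With only the 5′ end of each gene model counted as start, 5 of 8 members had a promoter peak in both replicates. Of these 5, 3 had a taller distal site, and the other members could not be compared. The Mef2b promoter peak compared here held the start of Rfxank.

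Clusters were runs of at least 3 distal peaks with gaps of at most 2000 bp that overlapped such a run in the other replicate. The span of a cluster joins the overlapping runs of both replicates, so parts of it can be a run in 1 replicate alone. There were 10 at NFI genes, 6 of them at Nfic, 2 at Nfix and 1 each at Nfia and Nfib. MEF2 genes had 3, of which 2 were at Mef2d and 1 at Mef2c, and Mef2a and Mef2b had none. So 6 of 8 members had a shared cluster, against 16.8% of all protein-coding genes, most of which are shorter. The counts depend on the gap, with 16 at NFI genes and 7 at MEF2 genes when gaps up to 5000 bp were joined. Gene bodies made up more of the NFI windows than of the MEF2 windows. None of the 3 MEF2 clusters lay in the body of a MEF2 gene, and 7 of the 10 NFI clusters lay in the body of the NFI gene. The other 3 lay over neighbours upstream: Ncln and S1pr4 beside Nfic, and Dand5 beside Nfix.

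Within the NFI genes the longest cluster was in Nfic, 9020 bp with 15 peaks in the run of replicate 1 and 11 in that of replicate 2. The run of replicate 2 left out the tallest site of the span, chr10:81416881-81417200, with 3.56 in replicate 1 and 2.91 in replicate 2. An intronic Nfib cluster spanned 7260 bp with 12 peaks in each replicate and 7 shared sites. Both of the long MEF2 clusters lay downstream, over host transcripts of the brain microRNA miR-9, a regulator of neural progenitors. The cluster beyond Mef2c spanned 20940 bp with 22 and 29 peaks, over the long non-coding RNA C130071C03Rik, which hosts Mir9-2. Only 5 of its 19 shared sites were inside the 50 kb flank, and Mir9-2 itself lay 71733 bp past the end of Mef2c.

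The cluster beyond Mef2d spanned 10910 bp across Gm3764 and Mir9-1, which begins 43511 bp past the gene's end. The run of replicate 1 had 18 peaks and that of replicate 2 had 5, with 5 shared sites in the span. The run of replicate 2 ended at 88211047, before Mir9-1 at 88215598, so only the run of replicate 1 crossed Mir9-1. Within 5000 bp of Mir9-1 there were 10 and 2 peaks, and within 5000 bp of Mir9-2 there were 6 and 6. The 10 include a peak at 88215421-88215980 that lies inside another, 88214981-88215980. Whether these runs act on the MEF2 gene, the microRNA or neither was not tested.

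Footprints in both replicates were found at 157 of the 185 shared distal sites, or 84.9%, against 79.4% of all shared distal sites. At NFI genes they were 113 of 133 sites and at MEF2 genes 44 of 52. In each replicate by itself, 254 of 302 distal peaks of replicate 1 (84.1%, against 77.5% of all) and 207 of 243 of replicate 2 (85.2%, against 80.5%) held a footprint. A distal peak of the members held 2.24 footprints on average in replicate 1 and 2.36 in replicate 2, where all distal peaks held 1.89 and 2.04. The members' shared sites were also taller than those of the genome, with a median height of 1.06 in replicate 1 and 0.930 in replicate 2, against 0.761 and 0.665. The part of height in the footprint counts was not tested. The site with the most footprints was a 1380 bp stretch in an Nfib intron with 14 and 7. An Nfia intronic site of 480 bp had 9 and 8. At 128 of the 185 sites (69.2%) some stretch was covered by a footprint in both replicates, against 65.3% of all shared distal sites.

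The families' own binding strings were searched on both strands in the central 200 bp of each site. The NFI string TTGGCA was in 43 of 185 sites (23.2%, exact 95% binomial interval 17.4 to 30.0%), against 21.7% of all shared distal sites, so its share was near the background. It was in 34 of 133 sites at NFI genes (25.6%) and in 9 of 52 at MEF2 genes (17.3%). At 9 sites (4.86%), 7 of them at NFI genes, a match anywhere in the site lay wholly inside a footprint stretch shared by both replicates, where 2.91% of all shared distal sites had one. The full palindrome was in 1 site, in the Nfia intron, 1.48 high in replicate 1 and 1.50 in replicate 2, and the match was inside a shared footprint. Among all shared distal sites 0.107% held the palindrome. Over the whole length of the sites TTGGCA was in 28.1%, against 25.1%.

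An exact MEF2 string was in 2 of the 185 sites (1.08%, interval 0.131 to 3.85%), against 0.301% of all shared distal sites. Both were at MEF2 genes, and searching the whole sites found no others (0.349% in the genome). The site 11100 bp upstream of Mef2b had heights of 1.92 and 1.56, and the site 1594 bp upstream of Mef2d had 1.01 and 0.717. None of the 133 sites at NFI genes held it (interval 0 to 2.74%). In promoters, over the whole site, it was in 1 of the members' 24 shared promoter sites, that of Mef2a, against 0.226% of such sites. So Mef2a, Mef2b and Mef2d each had a single site with a MEF2 string, printed above, and in none of them did a shared footprint touch the match. The looser form, CTA and TAG with any 4 bases between, was in 6 of 185 sites (3.24%) against 2.80%.

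Other strings gave further descriptions. The SP/KLF string GGGGCGGGG of GC-box binding factors was in 6 sites (3.24%) against 1.08% in the genome, all at NFI genes, 3 of them in Nfib introns. Of these 6 sites, 4 had the match inside a shared footprint, including the tallest Nfib site printed above. That is 2.16% of the 185 sites, where 0.291% of all shared distal sites had such a match. The members' sites were also richer in G and C, with a median of 54.5% against 50%. The E-box string CAGATGG of the neurogenic NEUROD factors was in 19 sites (10.3%) against 17.2%, and TGANTCA of the stimulus-induced AP-1 factors in 18 (9.73%) against 10.8%. The cyclic AMP response element was in 2 sites, both at Mef2d (1.08% against 0.396%). The only CTCF string searched, 14 bases long with 1 of them free, was in none (interval 0 to 1.97%), against 0.537%. Other forms of the CTCF site were not searched, so whether the members' sites hold them was not tested. The 24 shared promoter sites were searched over their whole length. TTGGCA was in 5 of them (20.8%, against 13.4% of promoter sites), GGGGCGGGG in 5 (against 17.4%) and the cyclic AMP response element in none (against 2.68%). Repeats took more than 50% of the central window at 3 of the 185 distal sites (1.62%, against 2.45%). These are matches of letters, not measured binding.

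The replicates were then compared site by site at the members. The other replicate had an overlapping peak for 63.9% of the members' distal peaks in replicate 1 and for 80.2% in replicate 2, against 69.8% and 83.2% of all distal peaks. The shared sites were taller in replicate 1 at 142 of 185 (76.8%), against 66.7% in the genome. Scaled by the median ratio of all paired peaks, which was 0.19 on the log2 scale in favour of replicate 1, the count was 97 of 185 (52.4%) against 46.5%. The median log2 ratio of replicate 1 over replicate 2 at the members was then 0.02. No member site left the central 95% of ratios of all pairs, −0.73 to 0.63, and the members' own range was −0.61 to 0.58. Of all shared distal sites 5.79% lay outside.

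**Figure D5:**
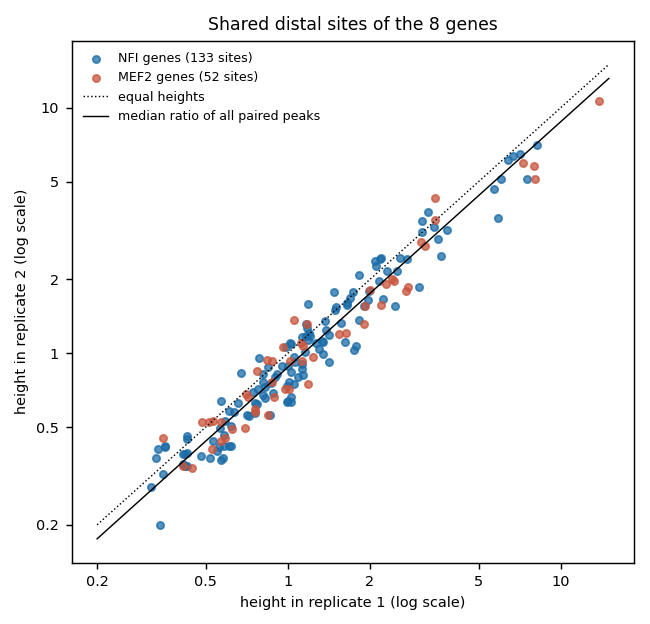
Height of the 185 shared distal sites in replicate 1 (horizontal) and replicate 2 (vertical), both on log scales, coloured by family. The dotted line marks equal heights and the solid line the median ratio of all paired peaks, around which the sites of both families lie.

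Peaks of a single replicate were lower than the shared sites. The 109 of replicate 1 had a median height of 0.459 and the 48 of replicate 2 had 0.416, where the medians over all unshared distal peaks were 0.354 and 0.336. The tallest was an Nfix intronic peak of 2.00 in replicate 1, at chr8:84789901-84790120, where replicate 2 listed no base at a false discovery rate of 0.05 or less. In replicate 2 the tallest was also in an Nfix intron, with 1.21, and there replicate 1 did list part of the peak. Such listed bases were found in 15 of the 48 peaks of replicate 2 (31.3%) and in 10 of the 109 of replicate 1 (9.17%). Over all unshared distal peaks these shares were 19.3% for replicate 2 and 12.3% for replicate 1.

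Genes known to work with MEF2 were open. Of 13 regulators and cofactors all 13 had a promoter peak in both replicates, with a median mean height of 5.96. The tallest were Hdac4, a class IIa deacetylase that represses MEF2 (16.7 in replicate 1 and 11.4 in replicate 2), Ppp3ca, a catalytic subunit of calcineurin (12.5 and 9.99), and Mapk14, the p38 kinase (14.0 and 8.17). Of 8 target genes of neurons all 8 were open, led by Jun (14.9 and 11.8), Klf6 (14.2 and 11.4) and Egr1 (8.12 and 7.03). Of 10 genes linked to NFI in neural development and glia 8 were open, with a lower median of 2.40. They were led by Ezh2, a histone methyltransferase gene (7.04 and 5.57), Efnb1, an ephrin gene (3.41 and 2.68), and Sox9, a glial fate factor (3.41 and 2.58). Gabra6, a receptor subunit of cerebellar granule cells, and Gfap, the astrocyte filament gene, had no promoter peak in either replicate. All 3 lists are set against the 62.6% of genes open in both.

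The tissue label was set beside marker promoters. Of all protein-coding genes 62.6% were open in both replicates. Counts such as 2 of 3 or 4 of 5 on lists this short cannot be told from that share. All 5 excitatory neuron markers were open in both replicates, as were 3 of 3 of dentate granule cells, 2 of 3 of CA1 and 3 of 3 of CA2 and CA3. Glial markers were open in part, with 4 of 5 of astrocytes (all but Gfap) and 5 of 6 of oligodendrocytes. Fewer were open in both replicates for inhibitory neurons (2 of 5), oligodendrocyte precursors (1 of 2), microglia (1 of 4), endothelial cells (1 of 3) and mural cells (1 of 2). In at least 1 replicate all 4 microglia markers and both mural markers had a peak, as did 3 of 5 inhibitory and 2 of 3 endothelial ones. Of the 4 genes of muscle, liver and blood none was open in either replicate. NFI and MEF2 genes are active in several of these cell types, so the part of each in the members' peaks was not tested.

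The gene most like each member was sought among 13366 genes over 3 measures in both replicates: promoter height, shared distal sites per 10 kb of window, and footprints per distal peak. For Mef2c it was Cux2, a homeobox gene of upper-layer cortical neurons, with a promoter of mean height 1.11 against 1.24 for Mef2c and 0.647 sites per 10 kb against 0.646. For Nfib it was Prkag2, an AMP kinase subunit, for Nfix Dagla, an enzyme of endocannabinoid synthesis, and for Mef2a Cntrl, a centrosome gene. For Mef2b it was Arfgap2, for Nfia C2cd4a and for Mef2d Gm42372. Nfic had no close neighbour: the nearest, Gm48552, stood at a distance of 2.60 standardised units, where the other 7 were at 0.240 to 0.744, and it lies in the Nfic window and so shares its peaks.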

How the data were processed

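Per sample, and on mm10, the authors deposited a longer and a shorter peak list, false discovery rates and footprints. Peak height is the deposited signal, on a scale that is not stated. All heights were whole multiples of a step, within 0.1 of it, with 152 per unit in replicate 1 and 155 in replicate 2, and the median peak had 98 and 99 steps, so depth was similar if both were scaled alike. The false discovery rate is a q-value the authors deposited for the local cut rate, listed at 0.05 or less. In the footprint files the authors deposited only the constant 0.01, an unnamed p-value or q-value, so positions alone were used. Which aligner and callers were run: not given in the sources used here. How CAST/EiJ reads mapped to the C57BL/6J reference was not analysed here.

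The longer lists were analysed with Python 3.11.15, numpy 2.4.6, pandas 2.3.3 and scipy 1.17.1 and drawn with matplotlib 3.10.9, on GENCODE M21 (basic set for starts) and RefSeq GRCm38.p6 sequence. Overlap was 1 bp or more, and shared sites were mutual best overlaps. Some deposited peaks of a replicate overlap each other, and each was counted as a peak. Footprints were counted wholly inside peaks, and shared footprint stretches were taken from those touching a peak. Steps and binomial intervals cover counting error only. The functions were tested on simulated data. With 2 samples of 1 group no test was made.

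The members and lists were chosen with earlier results of these data known. The rule named all members, their promoters, 3 tallest shared distal sites, site with the most footprints, largest cluster, tallest unshared peak and nearest gene over 6 standardised values, and the 3 tallest promoters of each list. Sequences of MEF2 matches outside footprints and of tall distal sites were added after values were seen. Alternatives covered the peak list, overlap, flank, promoter window, start, cluster gap, height limit, scaling, footprint overlap, motifs and single replicates.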

Additional observations from a re-analysis of the deposited data

How the results depend on the processing

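No paired analysis was possible because there was 1 group only. Of 76 values under other settings, 53 stayed near the reported ones and 23 moved. Near means within 1.5 times for a count, within the exact binomial interval for a percentage, and within 1 SD for a density (between replicates) or height ratio (over sites), so some near values still differ. The looser MEF2 string was in 3.24% of sites, and unscaled heights had a median log2 ratio of 0.21. A taller distal site was found at 5 members without flanks. In the stricter list it was found at 4 of the 6 members that kept a promoter peak in both replicates. In the stricter peak list shared distal sites numbered 76 (NFI) and 29 (MEF2), or 0.575 and 0.380 per 10 kb, NFI clusters 5, and 87.2% of replicate 2 distal peaks were shared. Sites above a height of 5 made up 10.5% there and 2.46% without flanks, with no share over all sites counted for either. Requiring 50% overlap of both peaks gave shared shares of 51.0% and 63.8%. Keeping only peaks at or above the median height gave 77.3% and 93.7%, with footprints at 92.2% of sites. MEF2 genes had 19 sites, 0 clusters and 0% of sites with a MEF2 string without flanks, and 27 sites and 1 cluster with 10 kb flanks. With gaps up to 5000 bp clusters were 16 (NFI) and 7 (MEF2). With only the 5′ end as start, 5 members had a promoter peak in both replicates, and 3 of these 5 had a taller distal site. The NFI palindrome was in 0.541% of sites. A single replicate gave 183 to 219 (NFI) and 60 to 83 (MEF2) distal peaks, 1.38 to 1.66 and 0.787 to 1.09 per 10 kb, and 16 to 20 and 3 to 5 clusters, since nothing had to be shared. Footprints were then at 84.1 to 85.2% of distal peaks, and all 8 promoters kept a peak. Leaving out sites near any annotated start, other starts for the taller-distal count and other settings for the share above 5 were chosen after seeing the data. The first left 114 (NFI) and 45 (MEF2) sites, with 6 members still having a taller distal site. Other causes were not tested. With 2 samples, the SD of each height rests on a single difference.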
